A study of Mus musculus with 3 samples.

Results

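The genes Ttr, Slco1c1, Dio2, Thra, Thrb and Hr carry thyroid hormone into the brain, activate it and read it out. They were taken by gene symbol, and all 6 were found among the 31053 genes of the count matrices. Thyroxine reaches the brain across the blood-brain barrier and the choroid plexus, whose epithelium secretes cerebrospinal fluid. Transthyretin binds it in that fluid, and the transporter encoded by Slco1c1 moves it across capillary endothelium and choroid plexus epithelium. In astrocytes and tanycytes the deiodinase encoded by Dio2 turns it into triiodothyronine, which acts in neurons and glia through nuclear receptors that bind DNA and exchange corepressors for coactivators.

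The data were 10x Visium spatial libraries, in which spots of barcoded primers under a tissue section capture its polyadenylated RNA and unique molecular identifiers (UMIs) count the captured molecules. Sections of fresh frozen brain, 10 µm thick, came from C57BL/6J mice in 3 groups of 1 section each. O-Ex was labelled as exercised, O-Ctrl and Y-Ctrl as controls, and O and Y were read as old and young from the series title. The labels state no age, no sex, no kind or length of exercise and no count of animals. They name the molecule nuclear RNA although whole sections were laid on the arrays, and a spot's counts are treated here as RNA from all the tissue above it.

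Spots were barcodes with at least 3000 UMIs: 3332 in O-Ex, 3498 in O-Ctrl and 3409 in Y-Ctrl, of 4992 each. The sections use the same 4992 barcodes, which mark array positions and not cells. Their median depth was 13685, 14900 and 15718 UMIs in O-Ex, O-Ctrl and Y-Ctrl. The spots were clustered on genes other than the 6 and their pathway, which gave 20 spot groups named from marker genes or, where too few markers led, from the leading gene. The groups differed in size between sections: choroid plexus spots numbered 121 in O-Ex, 41 in O-Ctrl and 46 in Y-Ctrl, and a Calb2-led thalamus group numbered 0, 3 and 215. With 1 section in each group no test was possible, and each value below has an exact 95% Poisson interval that covers counting error only. A difference between sections may be that of the groups, of the animals or of the plane cut, which cannot be told apart. In pieces of tissue, fewer cells of a type and less RNA per cell cannot be told apart either.

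Promoter windows of RefSeq (GRCm38.p6, 250 bases before to 50 after a start) were at hand for 3 of the 6 genes. Those of Dio2 and Thrb are shown because each holds a motif with a known role in hormone or cyclic AMP signalling. Their levels differed 11.3-fold and 5.37-fold between the highest and lowest spot groups described below. Slco1c1, whose window holds neither motif, differed 29.9-fold over the same 19 groups and 3.84-fold with choroid plexus left out. Capitals mark TGACGTCA, the cyclic AMP response element, in Dio2 (chr12:90738989-90739288, minus strand), and AGGTCA, the receptor half-site, in Thrb (chr14:17660710-17661009, plus strand). Both strands were searched, and the 2 motifs share no position in either window.
Dio2: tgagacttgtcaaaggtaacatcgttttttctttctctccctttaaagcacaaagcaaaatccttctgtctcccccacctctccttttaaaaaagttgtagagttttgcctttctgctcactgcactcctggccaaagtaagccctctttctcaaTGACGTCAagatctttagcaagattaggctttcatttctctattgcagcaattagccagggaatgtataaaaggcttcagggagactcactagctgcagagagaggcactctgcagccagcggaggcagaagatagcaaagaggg
Thrb: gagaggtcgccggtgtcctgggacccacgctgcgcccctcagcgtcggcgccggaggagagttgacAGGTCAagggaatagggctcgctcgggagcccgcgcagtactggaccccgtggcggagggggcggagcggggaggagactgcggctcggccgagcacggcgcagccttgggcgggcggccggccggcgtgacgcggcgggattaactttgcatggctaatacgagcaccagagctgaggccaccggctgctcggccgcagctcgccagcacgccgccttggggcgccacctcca
The response element begins 95 bases before the Dio2 start, and 1.79% of 32851 windows in the table hold it on either strand. The half-site begins 184 bases before the Thrb start, and 16.3% of the windows hold it. Neither motif was found in the Slco1c1 window or in the second Thrb window. These matches are a description of the letters and say nothing of binding.

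Ttr (chromosome 18, mm10), the thyroxine carrier of cerebrospinal fluid, was the member that differed most between sections. It had 12495 CPM (counts scaled to the same UMI total in each section) in O-Ex, 4864 in O-Ctrl and 3987 in Y-Ctrl, with 95% intervals of 12465 to 12526, 4846 to 4882 and 3971 to 4003. O-Ex was the highest and the 3 intervals did not overlap. The CPM ratio was 2.57 for O-Ex over O-Ctrl (2.56 to 2.58) and 1.22 for O-Ctrl over Y-Ctrl (1.21 to 1.23).

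Most of that Ttr lay in choroid plexus spots, which were 3.63% of spots in O-Ex, 1.17% in O-Ctrl and 1.35% in Y-Ctrl and held 88.9%, 81.5% and 87.2% of its UMIs. Inside those spots the level was much closer between sections: 189616 CPM in O-Ex, 183162 in O-Ctrl and 206489 in Y-Ctrl. The median choroid plexus spot gave 17.1%, 17.3% and 19.9% of all its UMIs to Ttr in O-Ex, O-Ctrl and Y-Ctrl. Single spots reached 32.0%, 28.4% and 30.1%, and 1 spot, in O-Ex, was under 1%. By choroid plexus markers other than Enpp2, which oligodendrocytes also express, Ttr stood at 21.5 UMIs per marker UMI in O-Ex, 24.0 in O-Ctrl and 23.6 in Y-Ctrl within those spots. In these spots the CPM of O-Ex lay between the controls, above O-Ctrl and below Y-Ctrl, and its median share and its Ttr per marker UMI were the lowest of the 3 sections.

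The whole choroid plexus list differed between the sections along with Ttr. Its 18 markers summed to 1947 CPM in O-Ex, 839 in O-Ctrl and 767 in Y-Ctrl, and none was at 0 in any section. All 18 were higher in O-Ex than in O-Ctrl by 1.5-fold or more, and 2 were that much higher in O-Ctrl than in Y-Ctrl. Their part in the Ttr result over whole sections was not tested.

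**Figure D1:**
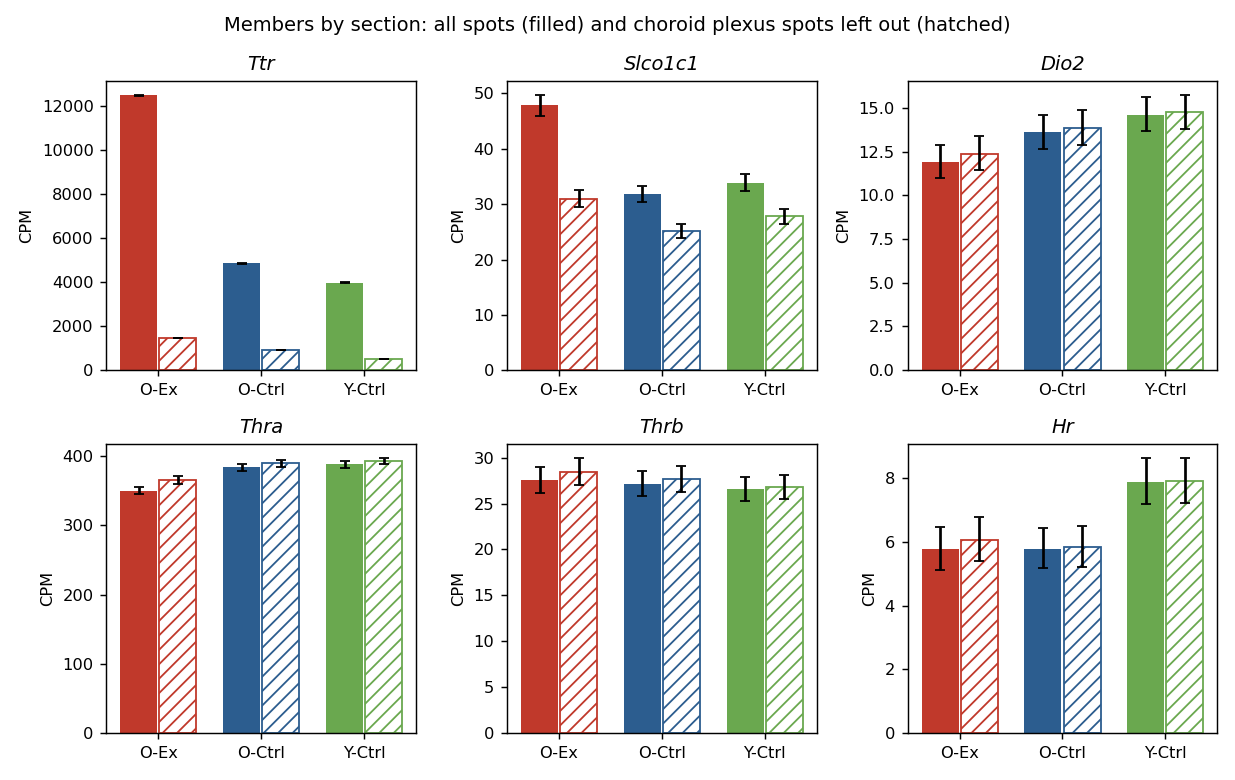
CPM of each of the 6 genes in O-Ex, O-Ctrl and Y-Ctrl (1 section each), over all spots (filled bars) and with choroid plexus spots left out (hatched bars). Error bars are exact 95% Poisson intervals of the counts. Ttr falls most when choroid plexus spots are left out, to 1475, 919 and 519 CPM. Dio2, Thra, Thrb and Hr move far less, Thra in O-Ex from 350 to 366 CPM.

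Ttr was also counted outside the choroid plexus. The other spots held 1475 CPM in O-Ex, 919 in O-Ctrl and 519 in Y-Ctrl, so O-Ex remained highest and O-Ctrl moved further from Y-Ctrl. The log2 ratio, taken on CPM plus 5, was 0.68 for O-Ex over O-Ctrl and 0.82 for O-Ctrl over Y-Ctrl in these spots, against 1.36 and 0.29 over whole sections. At least 1 Ttr UMI was found in 97.3% of these spots in O-Ex, 83.0% in O-Ctrl and 89.2% in Y-Ctrl. With every spot thinned to 3000 UMIs the shares were 73.1%, 41.3% and 46.1%, with exact binomial intervals of 71.5 to 74.6%, 39.7 to 43.0% and 44.4 to 47.8%.

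Outside the choroid plexus, Ttr was higher in spots with at least 10 UMIs of choroid plexus markers than in spots with 0, in each section. Other spots with at least 10 UMIs of the markers without Enpp2 held 15758 CPM of Ttr in O-Ex, 21133 in O-Ctrl and 11026 in Y-Ctrl. Other spots with 0 such UMIs held 405 CPM in O-Ex, 152 in O-Ctrl and 186 in Y-Ctrl. Barcodes under 1000 UMIs, which no comparison uses, held 20037 CPM in O-Ex, 1169 in O-Ctrl and 6187 in Y-Ctrl. The part of Ttr RNA from elsewhere in the section in the shares of spots with a Ttr UMI was not tested, and no expression is read from those shares.

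**Figure D2:**
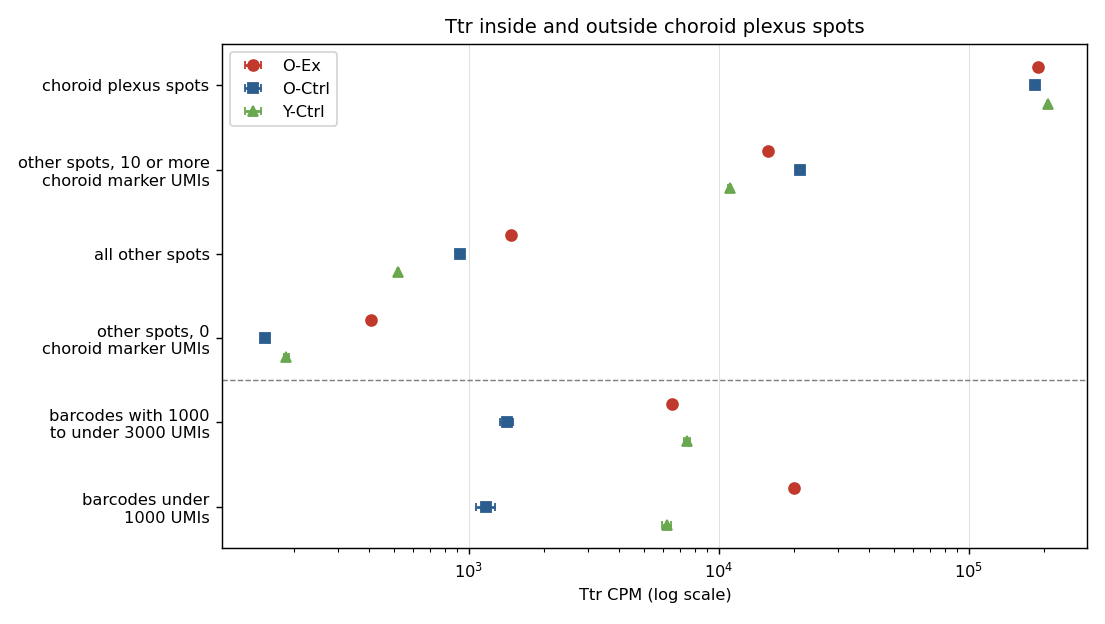
Ttr CPM (log axis) in O-Ex, O-Ctrl and Y-Ctrl, by kind of barcode, with exact 95% Poisson intervals that are mostly narrower than the symbols. Choroid markers here leave out Enpp2, and rows below the dashed line are barcodes left out of the comparisons. Choroid plexus spots lie between 183162 and 206489 CPM, while barcodes under 1000 UMIs range from 1169 in O-Ctrl to 20037 in O-Ex.

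Across spot groups the level of Ttr outside the choroid plexus varied 33.9-fold between the highest and lowest group mean, and it also varied widely within a group between sections. In the amygdala and piriform cortex group it had 5843 CPM in O-Ex, 239 in O-Ctrl and 304 in Y-Ctrl. The choroid plexus markers without Enpp2 summed there to 339, 23.3 and 20.6 CPM in O-Ex, O-Ctrl and Y-Ctrl. In white matter Ttr had 2577 CPM in O-Ex, 5476 in O-Ctrl and 2367 in Y-Ctrl, and the markers 219, 289 and 135 CPM. In the Vip-led upper cortical group it had 941, 104 and 170 CPM in O-Ex, O-Ctrl and Y-Ctrl, and the markers 71.5, 24.1 and 22.2 CPM. Thus O-Ctrl was highest in white matter and O-Ex in the other groups named, for Ttr and markers alike. The Vip-led group held 413, 126 and 248 spots in O-Ex, O-Ctrl and Y-Ctrl, with median depths of 4681, 12562 and 6877.5 UMIs. The part of depth in its Ttr values was not tested.

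In 15 groups with at least 50 spots in every section, choroid plexus left out, the mean log2 ratio of Ttr (region-matched ratio) was 1.16 for O-Ex over O-Ctrl. It was above 0 in 12 groups and below 0 in 3, from -1.09 in white matter to 4.58 in the amygdala and piriform cortex group. The mean was 0.92 without that last group, and the median group was at 0.89. The sign was that of the choroid plexus markers in 14 of the 15 groups, all but the Cabp7-led one. For O-Ctrl over Y-Ctrl the mean was 0.03, with 6 groups above 0 and 9 below, and the sign was that of the markers in 11 of 15.

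Slco1c1 (chromosome 6, mm10), whose product carries thyroxine across capillary endothelium and choroid plexus epithelium, was also highest in O-Ex. It had 47.8 CPM in O-Ex (46.0 to 49.8), 31.9 in O-Ctrl (30.4 to 33.4) and 33.9 in Y-Ctrl (32.5 to 35.4). O-Ex stood apart, and the intervals of O-Ctrl and Y-Ctrl overlapped. The CPM ratio was 1.502 for O-Ex over O-Ctrl (1.413 to 1.596), and on CPM plus 5 it was 1.43-fold, a log2 ratio of 0.52. For O-Ctrl over Y-Ctrl the log2 ratio was -0.08.

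Choroid plexus spots held 39.1% of Slco1c1 UMIs in O-Ex, 22.9% in O-Ctrl and 19.3% in Y-Ctrl. Within them it had 319, 337 and 389 CPM in O-Ex, O-Ctrl and Y-Ctrl, lowest in O-Ex. Without them it had 31.0, 25.1 and 27.8 CPM, and the log2 ratio fell to 0.26 for O-Ex over O-Ctrl. The region-matched ratio was 0.28 for O-Ex over O-Ctrl, above 0 in 13 of 15 groups. It was -0.19 for O-Ctrl over Y-Ctrl, below 0 in 13 of 15 groups, so O-Ctrl was the lowest section outside the choroid plexus.

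The 15 endothelial markers, of which none was at 0, summed to 1107 CPM in O-Ex, 1013 in O-Ctrl and 949 in Y-Ctrl outside choroid plexus spots. Over whole sections 13 of the 15 were higher in O-Ex than in O-Ctrl, with a median log2 ratio of 0.18, and 4 were higher in O-Ctrl than in Y-Ctrl. Their part in the Slco1c1 values was not tested.

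Among spot groups Slco1c1 was highest in choroid plexus, where the mean of the sections was 348 CPM and their range, 319 to 389, lay clear of every other group. Meninges (44.7), white matter (38.4) and the Vip-led upper cortical group (38.2) came next, with overlapping ranges. It was lowest in the dentate gyrus (13.1) and hippocampal CA2 and CA3 (11.7). With the choroid plexus left out, its closest gene over 54 points (18 groups in 3 sections) was Cldn5, a tight junction gene of brain endothelium, at r = 0.80. Igfbp7, Hbb-bs and Vtn followed at 0.74, 0.73 and 0.73. With the choroid plexus in, over 57 points, they were Abhd2, Ltc4s, Slc31a1 and Kcnj13, a choroid plexus potassium channel, at 0.90, 0.90, 0.88 and 0.88. These correlations of log2(CPM + 5) describe groups that share sections and depth, and carry no p.

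**Figure D3:**
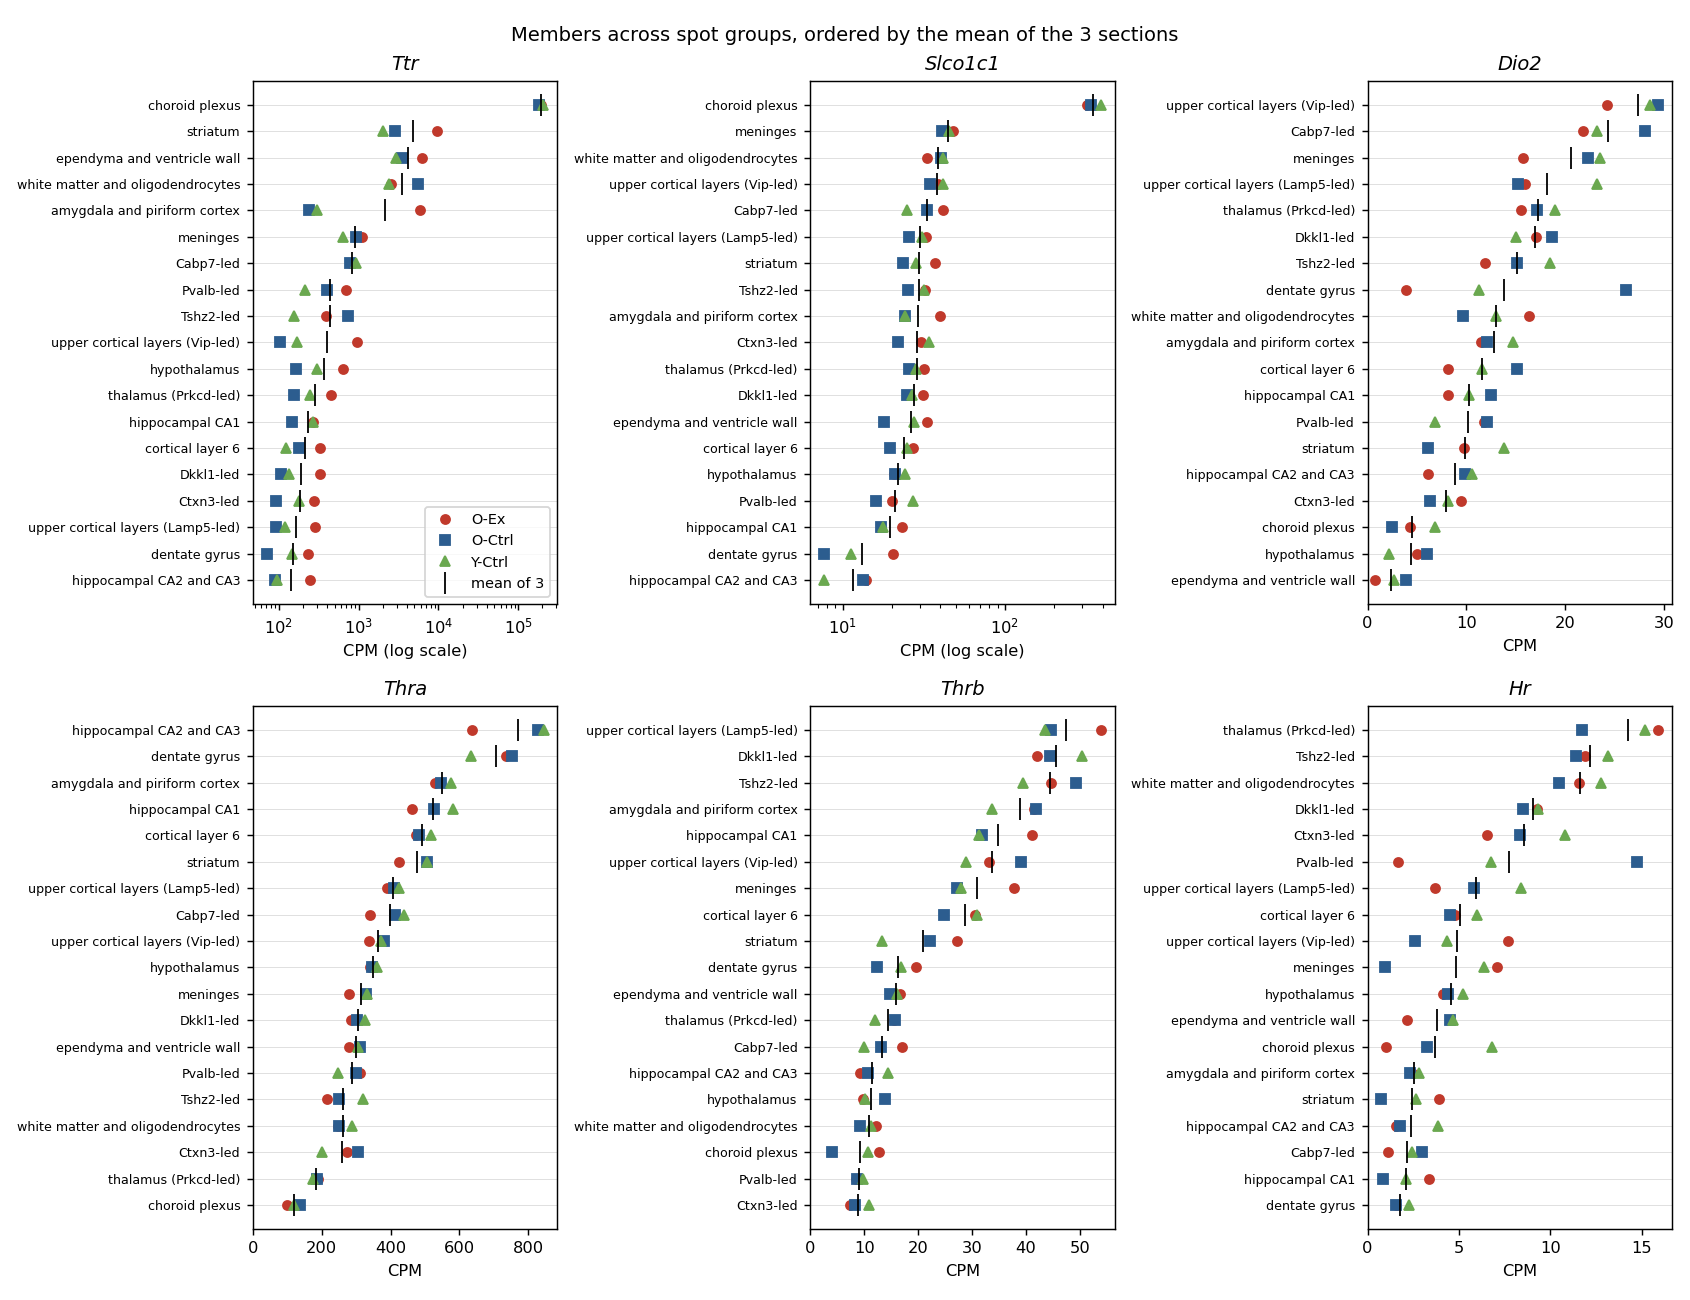
CPM of each gene in the 19 spot groups that hold at least 20 spots in every section, ordered by the mean of the 3 sections (black bars), with O-Ex, O-Ctrl and Y-Ctrl as separate symbols; Ttr and Slco1c1 are on log axes. Ttr and Slco1c1 peak in choroid plexus, Dio2 in the Vip-led upper cortical group, Thra in hippocampal CA2 and CA3, Thrb in the Lamp5-led upper cortical group and Hr in the Prkcd-led thalamus.

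Dio2, the deiodinase that makes triiodothyronine in astrocytes and tanycytes, was sparse. It had 11.9 CPM in O-Ex (11.0 to 12.9), 13.6 in O-Ctrl (12.7 to 14.6) and 14.6 in Y-Ctrl (13.7 to 15.6). O-Ex was lowest, and each section's interval overlapped that of the next, but not O-Ex that of Y-Ctrl. The log2 ratio was -0.14 for O-Ex over O-Ctrl and -0.08 for O-Ctrl over Y-Ctrl. After region matching it was -0.15, below 0 in 12 of 15 groups, and 0.05, below 0 in 7 of 15.

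Within the brain Dio2 varied 11.3-fold between groups. It was highest in the Vip-led upper cortical group, at 24.2 CPM in O-Ex, 29.4 in O-Ctrl and 28.5 in Y-Ctrl. That group was shallow, with a median of 4681 UMIs a spot in O-Ex, 12562 in O-Ctrl and 6878 in Y-Ctrl, and haemoglobin genes were among its leading genes. The Cabp7-led group (mean 24.3 CPM) and meninges (20.6) followed, with ranges that overlapped it. Dio2 was lowest in ependyma and ventricle wall, at 0.722, 3.86 and 2.68 CPM in O-Ex, O-Ctrl and Y-Ctrl, and in hypothalamus, at 5.05, 6.01 and 2.14 CPM. These lowest values rest on 1, 6 and 4 UMIs in ependyma and ventricle wall and 32, 37 and 7 in hypothalamus.

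Its closest genes were Mgll, a lipase of endocannabinoids, and Slc1a2, the astrocytic glutamate transporter, at r = 0.76 and 0.75 over 57 points. Abhd17a and Ppp1r9b followed at 0.72 and 0.71. The summed astrocyte list, which Slc1a2 belongs to, had r = 0.29 with Dio2, and the tanycyte list r = 0.34. The excitatory and inhibitory neuron lists were higher, at r = 0.54 and 0.37. Without choroid plexus r was 0.16 for astrocytes, 0.27 for tanycytes, 0.46 for excitatory neurons and 0.24 for inhibitory neurons. The astrocyte list had 2675 CPM in O-Ex, 2850 in O-Ctrl and 2566 in Y-Ctrl, with none of its 15 markers at 0.

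Thra (chromosome 11, mm10), the receptor gene whose product is the main thyroid hormone receptor of the brain, was lowest in O-Ex. It had 350 CPM in O-Ex (345 to 355), 384 in O-Ctrl (379 to 389) and 388 in Y-Ctrl (383 to 393). The controls overlapped and O-Ex lay below both. The log2 ratio was -0.13 for O-Ex over O-Ctrl and -0.02 for O-Ctrl over Y-Ctrl. With choroid plexus spots left out it was -0.09 and -0.01. After region matching it was -0.11, below 0 in 13 of 15 groups, and -0.01, below 0 in 10 of 15. In each case the difference was under 1.5-fold. The 3′ end of Thra overlaps Nr1d1 on the opposite strand, which had 35.4, 37.1 and 33.3 CPM in O-Ex, O-Ctrl and Y-Ctrl, and counts per gene do not separate the receptor isoforms.

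Between groups Thra was highest in hippocampal CA2 and CA3, at 636 CPM in O-Ex, 829 in O-Ctrl and 848 in Y-Ctrl, and in the dentate gyrus, at 735, 753 and 634 CPM. Those groups overlapped each other and lay above the amygdala and piriform cortex group (mean 550), hippocampal CA1 (524) and cortical layer 6 (491). It was lowest in the Prkcd-led thalamus (183) and choroid plexus (119), and both were separate from the groups above them. In choroid plexus spots Ttr had 189616, 183162 and 206489 CPM in O-Ex, O-Ctrl and Y-Ctrl. Its UMIs there enter the total to which every other gene is scaled. The part of this in the low level of Thra was not tested. Among its closest genes were Map2k1, a kinase of the ERK pathway, Brk1, an actin regulator, and Mrps18c, a mitochondrial ribosome protein, at r = 0.92, 0.92 and 0.90. The summed excitatory neuron list had r = 0.64 with Thra.

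Thrb, the second receptor gene, was the steadiest of the 6 between sections. It had 27.6 CPM in O-Ex (26.2 to 29.0), 27.2 in O-Ctrl (25.8 to 28.5) and 26.6 in Y-Ctrl (25.3 to 27.9), and all intervals overlapped. The log2 ratio was 0.02 for O-Ex over O-Ctrl and 0.03 for O-Ctrl over Y-Ctrl. After region matching it was 0.06 and 0.05, with 7 and 8 of 15 groups above 0. With TMM factors both ratios of O-Ex over O-Ctrl were below 0, and so was the whole-section ratio scaled without mitochondrial genes.

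Across groups Thrb was highest in the Lamp5-led upper cortical group, at 54.0 CPM in O-Ex, 44.7 in O-Ctrl and 43.5 in Y-Ctrl. The Dkkl1-led (mean 45.7) and Tshz2-led (44.5) groups overlapped it. It was low in hippocampal CA2 and CA3 (11.5), where Thra was at its highest, and lowest in the Pvalb-led (8.96) and Ctxn3-led (8.82) groups. Its r with Thra was 0.24 over all groups and 0.11 without choroid plexus. Among the closest genes were Epop (0.89), Nlk (0.89) and R3hdm1 (0.87). The excitatory and inhibitory neuron lists had r = 0.61 and 0.60 with Thrb.

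Hr (chromosome 14, mm10), a corepressor of the receptors and a textbook triiodothyronine target in rodent brain, had few counts. It had 5.77 CPM in O-Ex (5.13 to 6.46), 5.79 in O-Ctrl (5.18 to 6.45) and 7.89 in Y-Ctrl (7.21 to 8.63). The sections labelled O overlapped each other and lay below Y-Ctrl. The CPM ratio of O-Ctrl over Y-Ctrl was 0.73 (0.64 to 0.85), and the log2 ratio on CPM plus 5 was -0.26. After region matching the log2 ratio was -0.16, below 0 in 13 of 15 groups. For O-Ex over O-Ctrl the CPM ratio was 0.996 (0.849 to 1.17), with 9 of 15 groups above 0 on the log2 scale.

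Hr was highest in the Prkcd-led thalamus, at 15.9 CPM in O-Ex, 11.7 in O-Ctrl and 15.1 in Y-Ctrl. The Tshz2-led group (mean 12.2) and white matter (11.6) overlapped it, and all 3 lay above the Dkkl1-led group (9.03). It was lowest in hippocampal CA1 (2.10) and the dentate gyrus (1.78), at 2, 1 and 2 UMIs in the dentate gyrus. Its order ran against that of Thra, with r = -0.52 over 57 points and -0.73 over 54 without choroid plexus. Among the closest genes were Tsc22d3, a glucocorticoid-induced gene, Apln, the apelin gene, and Pik3ca, a kinase subunit, at r = 0.76, 0.73 and 0.72. Since Hr has few UMIs a group, part of its spread is counting error.

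Set against all genes, 5 of the 6 members had a mean of at least 10 CPM and entered the count, all but Hr. On CPM plus 5, Ttr alone of the 5 was at least 1.5-fold apart between O-Ex and O-Ctrl, with either method, while Slco1c1 reached 1.502-fold over whole sections with no 5 added. Of the 9013 genes with such a mean, 0.832% were that far apart in either direction over whole sections and 0.266% after region matching. Between O-Ctrl and Y-Ctrl none of the 5 was, where 0.621% of the 9013 genes were over whole sections and 0.3% after region matching. The count came to 1 when choroid plexus spots were left out, since Ttr was then 1.76-fold higher in O-Ctrl. O-Ctrl is in both comparisons, so a low or high value of that section moves both.

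**Figure D4:**
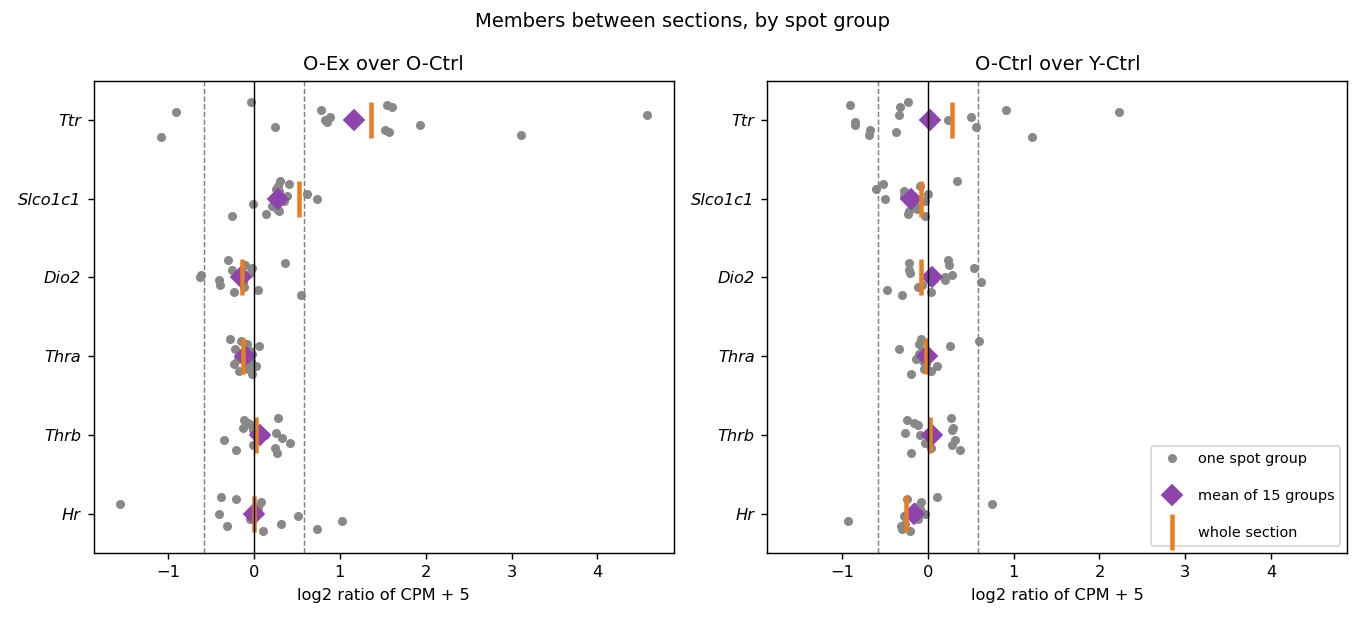
Log2 ratios of CPM + 5 for O-Ex over O-Ctrl (left) and O-Ctrl over Y-Ctrl (right): grey points are the 15 shared spot groups, diamonds their mean and orange bars the whole section, with dashed lines at 1.5-fold. Ttr spreads from -1.09 to 4.58 on the left, and the means of the other 5 genes lie within the dashed lines in both panels.

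The rest of the pathway was counted from lists of transporters and binding proteins, deiodinases, receptor partners, response genes and the hypothalamic-pituitary-thyroid axis. Among those at 10 CPM or more on average, none was 1.5-fold apart in either comparison or by either method: 6 of 11 transporters and binding proteins passed that mean, 16 of 17 receptor partners, 8 of 10 response genes, 1 of 3 deiodinases (Dio2 itself) and 1 of 8 axis genes. The transporters and binding proteins had a median log2 ratio of 0.29 for O-Ex over O-Ctrl, above 0 in 5 of 6, and of 0.01 for O-Ctrl over Y-Ctrl. The median of all 9013 genes was 0.06 and -0.01, with 6287 above 0 in O-Ex over O-Ctrl. The receptor partners had medians of 0.11, above 0 in 16 of 16, and -0.04, above 0 in 5 of 16. Of the 9013 genes 4110 were above 0 in O-Ctrl over Y-Ctrl. The response genes had medians of -0.01 and -0.09. All these medians are over whole sections. After region matching the partners had 0.09, above 0 in 15 of 16, and -0.001, above 0 in 8 of 16. Of the 9013 genes, 6708 were then above 0 in O-Ex over O-Ctrl and 4272 in O-Ctrl over Y-Ctrl. All genes then had 0.08 and -0.01, the transporters and binding proteins 0.17 and -0.03, and the response genes 0.07 and -0.01.

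Slco1a4, an organic anion transporter of brain endothelium, had 21.7 CPM in O-Ex, 16.5 in O-Ctrl and 24.9 in Y-Ctrl, lowest in O-Ctrl like Slco1c1. Slc3a2, the heavy chain of amino acid transporters, had 92.9, 76.5 and 75.0 CPM in O-Ex, O-Ctrl and Y-Ctrl. Crym, which binds triiodothyronine in the cytosol, had 89.7 CPM in O-Ex, 67.8 in O-Ctrl and 68.5 in Y-Ctrl, and its log2 ratio for O-Ex over O-Ctrl was 0.38 over whole sections and 0.55 after region matching.

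The inactivating deiodinase Dio3 had 35, 28 and 23 UMIs in O-Ex, O-Ctrl and Y-Ctrl in all, and Dio1, the deiodinase of liver and kidney, had 0, 0 and 2. With 3 counts as the limit that a count of 0 allows, Dio1 was at most 0.0578 CPM in O-Ex and 0.0526 in O-Ctrl, and the exact 95% Poisson upper limits were 0.0711 and 0.0647 CPM. The corepressor gene Ncor1 had 70.4 CPM in O-Ex, 60.4 in O-Ctrl and 65.7 in Y-Ctrl. The coactivator Ncoa1 had 67.1, 64.1 and 65.6 CPM in O-Ex, O-Ctrl and Y-Ctrl, and the partner receptor Rxrg 4.26, 6.10 and 4.27.

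Among response genes Homer1, a postsynaptic scaffold, had 98.3 CPM in O-Ex, 72.1 in O-Ctrl and 83.7 in Y-Ctrl. Klf9, a triiodothyronine-induced transcription factor, had 12.4, 8.74 and 8.25 CPM in O-Ex, O-Ctrl and Y-Ctrl and did not reach the mean of 10 CPM. Mbp, a myelin protein gene, had 2578, 2904 and 2551 CPM, and Nrgn, a postsynaptic calmodulin binder, 1593, 1485 and 1620 CPM, in O-Ex, O-Ctrl and Y-Ctrl. The sign for Mbp turned between methods. Its log2 ratio for O-Ex over O-Ctrl was -0.17 over whole sections and 0.08 after region matching, above 0 in 6 of 15 groups. Trh, the hypothalamic releasing hormone, had 70 UMIs in O-Ex, 430 in O-Ctrl and 311 in Y-Ctrl, or 1.35, 7.54 and 5.08 CPM. Its lowest group log2 ratio for O-Ex over O-Ctrl, -4.86, was in the Pvalb-led group and not in hypothalamus. Pvalb-led spots numbered 68 in O-Ex, 125 in O-Ctrl and 113 in Y-Ctrl, and hypothalamus spots 537, 539 and 233. The part of the plane cut in the Trh counts was not tested. The Trh receptor gene Trhr had 3.32, 3.49 and 1.45 CPM and the degrading enzyme Trhde 14.6, 14.3 and 14.0 CPM in O-Ex, O-Ctrl and Y-Ctrl.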

How the data were processed

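The authors deposited raw UMI counts per gene and barcode, which the file headers credit to Space Ranger 2.0.0. The submitters' processing notes name mm10 as the genome build. No normalization precedes these counts. Depth per section was 53196124, 58234443 and 62348064 UMIs in O-Ex, O-Ctrl and Y-Ctrl, of which 97.5%, 97.9% and 98.1% lay in barcodes with at least 3000 UMIs. Mitochondrial genes took 17.8%, 19.7% and 19.7% of the UMIs. Images and spot coordinates were left aside. Doublets were not called, because spots are not cells.

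Spots were clustered jointly with scanpy 1.11.5 and igraph 0.11.9 (2000 variable genes scaled within section, 30 components, 15 neighbours, Leiden at 0.8), leaving out the 6 genes and their pathway lists. A group was named where at least 4 markers of a region were among its 30 leading genes. Counts were summed to CPM, and ratios were taken on log2(CPM + 5) for genes averaging 10 CPM or more. Group size differed between sections, so the region-matched ratio weighted the shared groups equally. The code was tested on simulated data. Named genes were the 6, for each the 4 of highest Pearson r over spot groups, and from each pathway list the 2 most abundant and the 2 of largest whole-section ratio; a few of these are not reported here. Coordinates come from the GENCODE annotation of mm10. The genes and lists were chosen with earlier results of these data known. Alternatives covered depth minimums, pseudocount, scaling (edgeR 4.0.16 for TMM factors), expression minimum and grouping.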

Additional observations from a re-analysis of the deposited data

Results flagged for a closer look

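Ttr was found on barcodes that no comparison uses. In O-Ex the 1130 barcodes under 1000 UMIs held 20037 CPM of Ttr (6755 UMIs; exact 95% Poisson interval 19562 to 20520 CPM). In the other sections the barcodes under 1000 UMIs (1012 in O-Ctrl and 1159 in Y-Ctrl) held 1169 CPM in O-Ctrl and 6187 CPM in Y-Ctrl, so the value of O-Ex stood above both control sections and above its own section level of 12495 CPM. Choroid plexus markers without Enpp2 had 1299 CPM on barcodes under 1000 UMIs in O-Ex, 139 in O-Ctrl and 546 in Y-Ctrl. On barcodes with 1000 to under 3000 UMIs Ttr had 6475 CPM in O-Ex, 1418 in O-Ctrl and 7436 in Y-Ctrl. The other 5 genes had at most 97 UMIs each on the barcodes under 1000 UMIs in O-Ex. Whether these barcodes lie under tissue or beside it was not tested, since spot positions were not used here.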

How the results depend on the processing

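Ttr was the member past 1.5-fold for O-Ex over O-Ctrl under every alternative run, with a log2 ratio of 0.68 (choroid plexus spots left out) to 1.38 over whole sections and 1.08 to 1.69 after region matching. No member passed for O-Ctrl over Y-Ctrl, except that the count was 1 (Ttr) with choroid plexus spots left out; its region-matched ratio there ranged between -0.15 and 0.04 and turned sign under 5 of 10 alternatives, all of them other groupings or weights. Slco1c1 and Thra kept their direction in both comparisons under all alternatives. Dio2 did so too, except for O-Ctrl over Y-Ctrl after region matching, where 2 of 10 turned its sign. Hr was lower in O-Ctrl than in Y-Ctrl under all of them.

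Of all genes, 39 rather than 75 were 1.5-fold apart over whole sections for O-Ex over O-Ctrl with choroid plexus spots left out. With a pseudocount of 1 CPM the counts after region matching were 58 rather than 24 for O-Ex over O-Ctrl and 49 rather than 27 for O-Ctrl over Y-Ctrl. With genes down to 2 CPM they were 93 rather than 56 over whole sections and 48 rather than 27 after region matching for O-Ctrl over Y-Ctrl. The higher counts at a lower pseudocount or minimum follow from low genes entering or being shrunk less. All 6 genes varied at least 2-fold between spot groups under the main grouping, a grouping by marker scores and each depth minimum tried. Other cluster resolutions and scaling over all sections together were not run for these levels.

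No paired analysis was possible because each group has 1 section, and for the same reason no replicate was left out. Values of Hr, Dio3 and Dio1 are limited by depth. Leaving Enpp2 out of the choroid plexus markers, the likeness without choroid plexus and the counts on barcodes under 3000 UMIs were added after seeing the data.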
